A study of Mus musculus with 8 samples.

Results

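The 4 genes described here are the VEGF family ligands Vegfa, Vegfb, Vegfc and Pgf, chosen by name as 4 of 28692 gene rows. They were followed across 7635 single cells of a mouse melanoma: through blood endothelial cells (BEC), lymphatic endothelial cells (LEC), their subsets, and pigmented tumor cells. Pigmented cells were defined by at least 20 summed unique molecular identifiers (UMIs) of the pigment genes Dct, Tyrp1, Pmel and Tyr, which gave 22 cells in the BEC sort and 279 in the LEC sort. After these and the stromal and melanocytic clusters were set aside, 3168 endothelial cells remained of 3228 cells in the BEC sort, and 4024 of 4407 in the LEC sort.

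Pieces of MT-ret melanoma, a transplantable tumor from mice that carry the RET oncogene under the metallothionein promoter, grew in the flank of 10 C57BL/6N mice, and both cell types were then isolated from tumor tissue by flow cytometry. There was no untreated, normal-tissue or genetically altered group, and the sort gates, the age of the mice and the time of collection are not given in the sources used here. The labels list 4 droplet libraries of 3′ tags for each sort. The columns of the deposited count matrix carry the sort but no library number, so each sort is 1 sample, no difference below has a replicate check and no test was possible.

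VEGF ligands are secreted growth factors that act through receptor tyrosine kinases on endothelial cells. Vegfa, the main driver of blood vessel sprouting and a textbook hypoxia-induced gene, binds Flt1 (VEGFR1) and Kdr (VEGFR2). Vegfb and placental growth factor (Pgf) bind Flt1, while Vegfc binds Flt4 (VEGFR3), the receptor that drives lymphatic growth, and after proteolytic processing also Kdr. In tumors Vegfa is usually thought of as coming from tumor and stromal cells, with endothelium as the receiver.

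All 4 genes are protein coding, and none overlaps another gene (GRCm38, annotated by GENCODE M21). Vegfa lies on chromosome 17 (46016993 to 46032369, minus strand), Vegfb on chromosome 19 (6982473 to 6987651, minus strand), Vegfc on chromosome 8 (54077606 to 54187096, plus strand) and Pgf on chromosome 12 (85166635 to 85177790, minus strand). Because levels are later set against hypoxia genes, the bases before each start were searched for the core of the hypoxia response element, ACGTG or GCGTG, on both strands (CACGT and CACGC when read on the other). These letters are short and overlap the E-box CACGTG. At least 1 match was present in 38.6% of the 250-base windows before 32851 RefSeq starts (GRCm38.p6), so a match is a description and not a site. All 4 genes matched that table. The windows before the main starts of Vegfa (chr17:46032378-46032627), Vegfb (chr19:6987652-6987901) and Vegfc (chr8:54077282-54077531) are shown 5′ to 3′ on the strand of the gene, to show how many matches each has and where they lie, with matches in capitals. The window before the RefSeq start of Pgf lies inside the 5′ UTR of another annotated transcript, whose start is 477 bases farther upstream, and only its match with 10 bases on each side is shown (chr12:85177423-85177447).
Vegfa: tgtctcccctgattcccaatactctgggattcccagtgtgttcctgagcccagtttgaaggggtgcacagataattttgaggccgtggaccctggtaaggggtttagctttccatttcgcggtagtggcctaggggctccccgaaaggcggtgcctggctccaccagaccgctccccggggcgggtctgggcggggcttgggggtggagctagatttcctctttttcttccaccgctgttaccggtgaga
Vegfb: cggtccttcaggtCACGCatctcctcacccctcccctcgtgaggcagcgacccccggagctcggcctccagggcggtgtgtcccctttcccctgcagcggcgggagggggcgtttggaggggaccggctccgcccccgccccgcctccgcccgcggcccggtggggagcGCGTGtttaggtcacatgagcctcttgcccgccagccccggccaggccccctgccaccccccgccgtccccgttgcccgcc
Vegfc: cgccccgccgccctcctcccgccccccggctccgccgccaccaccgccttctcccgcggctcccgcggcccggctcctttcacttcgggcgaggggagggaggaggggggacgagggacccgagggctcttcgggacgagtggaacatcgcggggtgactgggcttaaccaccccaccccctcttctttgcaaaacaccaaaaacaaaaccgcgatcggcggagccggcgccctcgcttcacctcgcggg
Pgf: cctgcggggtCACGCgcactcaggt
The windows of Vegfa and Vegfc held no match, that of Vegfb held 2 and that of Pgf 1. Absence of these letters says nothing about sites elsewhere: hypoxia elements can lie far from a start. A second, internal Vegfa start listed by RefSeq, 7206 bases downstream of the GENCODE gene start, had 2 matches in its window, and the second Pgf start had 0.

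Levels are in CPM (a gene's UMIs per group of cells, divided by all UMIs of that group and expressed as counts per 1e6). The BEC sort had 71304111 UMIs at a median of 19416 per cell, and the LEC sort 59273049 at 11000 per cell. A single UMI stood for 0.0140 CPM over the BEC sort and 0.0169 CPM over the LEC sort. Among genes with a mean of 0.01 to 0.05 UMIs per cell, 58.7% of nonzero values in BEC and 68.4% in LEC were above 1, where independent molecules at a mean of 0.05 would give 2.48%. Counts are thus not independent molecules, and the cause was not tested. Before each interval was computed, counts were divided by a factor measured on these low genes, 2.81 (BEC) or 3 (LEC). Such 95% intervals hold counting error alone and say nothing of mice or repeat sorts. Marker genes fitted the sort labels: 10 lymphatic markers summed to 33721 CPM in endothelial cells of the LEC sort and 196 CPM in those of the BEC sort, and 11 blood endothelial markers to 1823 and 19118 CPM. Of the cell barcodes, 34 occurred in both sorts. UMIs of the pigment genes were present in 29.9% of BEC endothelial cells and 53.4% of LEC endothelial cells.

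Pgf and Vegfa were higher in the LEC sort and were highest in 1 small cluster of that sort with high hypoxia genes, Vegfc was higher in the BEC sort, and Vegfb was spread over all groups at low levels. Of the 8307 genes at 10 CPM or more in either sort, 11.7% reached a 2-fold higher level in the lymphatic sort and 8.76% in the blood sort. Of the 3 ligands that passed this minimum, Pgf and Vegfb were higher in LEC and Vegfc in BEC. Vegfa was under the minimum in both sorts.

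The BEC sort held Pgf at 54.1 CPM (51.3 to 57.1) and the LEC sort at 268 CPM (261 to 275), a 4.94-fold higher level (4.66 to 5.25). It had 15868 UMIs in 1240 LEC cells and 3861 UMIs in 423 BEC cells. Much of this difference came from 1 set of 255 cells, cluster 16, described below. Without it the log2 ratio of LEC over BEC was 1.15 in place of 2.31.

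Vegfa, the best known family member, had 57 UMIs in 24 of 3228 BEC cells and 562 UMIs in 218 of 4407 LEC cells. This made 0.799 CPM (0.481 to 1.22) against 9.48 CPM (8.16 to 10.9), a level 11.9-fold higher in the LEC sort (7.57 to 20.1). Pigmented cells held 15.8% of the Vegfa UMIs of the BEC sort and 26.3% of those of the LEC sort. Their shares of all UMIs were 1.20% and 13.1%. Endothelial cells alone had 0.560 CPM in the BEC sort, where no cluster was above 2.51 CPM, and 7.75 CPM in the LEC sort. Among clusters that carried the markers of the sort's own type, which leave out cluster 16, the log2 ratio was 2.77 in place of 3.57.

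Vegfb, a ligand tied to fatty acid handling and vessel survival, had 5.02 CPM over the BEC sort (4.20 to 5.99) against 23.3 CPM over the LEC sort (21.3 to 25.6), a ratio of 4.65 (3.80 to 5.68). Pigmented cells held 25.4% of the LEC sort's Vegfb UMIs and 13.1% of all its UMIs. Endothelial clusters were placed in the blood or lymphatic lineage by which marker list summed to at least 2-fold the other, cluster 16 being lymphatic by this rule. Between lymphatic-lineage cells of the LEC sort and blood-lineage cells of the BEC sort the levels were 20.6 and 4.26 CPM, a 4.84-fold difference (3.87 to 6.09).

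Vegfc went the other way, with 115 CPM (110 to 119) in the BEC sort against 6.46 CPM (5.40 to 7.70), 17.7-fold higher in the former (14.8 to 21.3). It ranked 79th from the bottom of the 8307 genes ordered by the ratio of LEC over BEC. Most of the LEC sort's Vegfc was not in lymphatic cells: 104 cells in clusters of blood lineage held 291 of its 383 UMIs, at 145 CPM (118 to 177). Lymphatic-lineage cells had 37 UMIs in 13 of 3920 cells, or 0.772 CPM (0.388 to 1.31), against 117 CPM in blood-lineage cells of the BEC sort. That difference was 152-fold (89.2 to 302). Lymphatic cells thus carried almost no transcript of Vegfc, a ligand of their receptor Flt4, and blood endothelial cells did. Figf (Vegfd), which also binds Flt4, was at 2.44 CPM in lymphatic-lineage cells (1.74 to 3.34).

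**Figure D1:**
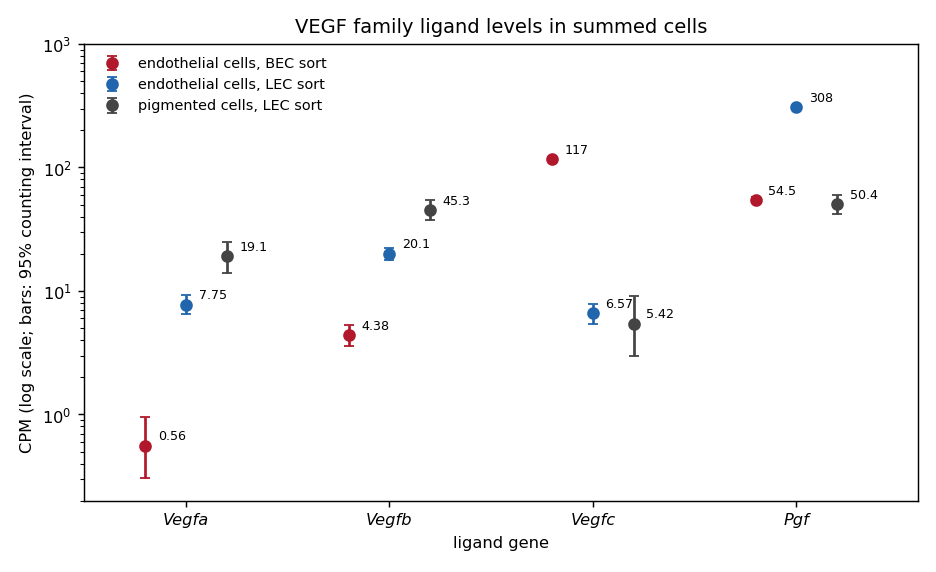
Level of each ligand in CPM (log axis) in endothelial cells of the BEC sort (red), endothelial cells of the LEC sort (blue) and pigmented cells of the LEC sort (grey); points are sums over cells and bars are 95% counting intervals. Vegfc is highest in BEC at 117 CPM, Pgf in LEC at 308 CPM, and Vegfa and Vegfb in pigmented cells at 19.1 and 45.3 CPM.

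The sorts differed in depth, so the share of cells with a UMI was compared after each cell was thinned to 5000 UMIs, which left out no cell. Thinning drew single counts without the count factor, and these counts are not independent molecules. Thinned shares, and their intervals, may therefore not be fully equalised for depth. Pgf was then found in 6.72% of BEC cells (5.88 to 7.64%) and 23.1% of LEC cells (21.9 to 24.4%), against 13.1% and 28.1% without thinning. Vegfc was found in 26.9% of BEC cells (25.3 to 28.4%) and 1.07% of LEC cells (0.785 to 1.42%), against 42.3% and 1.68%. Vegfb was found in 1.70% and 6.54%, and Vegfa in 0.279% and 2.93%; unthinned, these shares were 4.71% and 10.9%, and 0.743% and 4.95%. The order of the sorts was the same on both scales for all 4 ligands. For scale, Pgf was found in 9.42% of the 191 pigmented cells with at most 5 pan-endothelial UMIs (5.68 to 14.5%, thinned), which had a median depth of 26192 UMIs before thinning. Within the BEC sort the thinned share was 24.1% in cluster 1 (20.6 to 27.9%), described below, and 1.78 to 2.84% in clusters 2, 3, 4 and 7.

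Cells of both sorts were clustered with the 4 ligands left out of the clustering genes, and 16 of 18 clusters were endothelial. The 15 groups of at least 50 cells of 1 cluster in 1 sort are described by number. Because genes that move with the ligands shaped the clusters, the levels below describe them and test nothing. In the BEC sort, cluster 1 (Chga, Tnfrsf9, AA467197, Lcp2, Apln) also had the tip cell marker Kit among its leading genes, cluster 2 was led by Ramp3, Slco2a1, Aplnr, Fuca2 and Hecw2, and cluster 3 by Npr3, Vegfc, Esm1, Dkk2 and Slc45a4. Cluster 4 was led by the venous genes Ackr1, Sele and Selp with Tagln and Hdc, cluster 6 by Aqp7, Timp4, Gja5, Serpinf1 and Col8a1, cluster 7 by the cell cycle genes Rrm2, Tk1, Aurkb, Kif2c and Plk1, and cluster 8 by Tnfrsf9, Kcne3, Trp53i11, AA467197 and Apln. Of the LEC clusters, number 5 had the cell cycle genes Cenpf, Prc1, Cdc20, Ube2c and Top2a on top, cluster 11 was led by Postn, Cmah, Mfap2, Duoxa2 and Foxp2, cluster 12 by Cd74, H2-Aa, H2-Eb1, H2-DMb1 and H2-Ab1, and cluster 13 by Cd24a, Scn3a, Gpm6a, G0s2 and Tc2n. Cluster 14 was led by Tppp3, Fndc1, Igfbp5, Abi3bp and Gm21541, and cluster 15 by Nmb, Ptx3, Gap43, Ggct and Ttyh1. Cluster 16 was led by Npy, Nipal1, Pgf, Hk2 and Mpp6, and cluster 17 by Ccl7, Ccl2, Dcn and Nupr1. Clusters 16 and 17 were given no type name, since their 10 leading genes held 1 marker of another type each (the macrophage gene Cd68 and the fibroblast gene Dcn) and 0 lymphatic markers. All 10 lymphatic markers reached 10 CPM in both.

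Pgf was concentrated in cluster 16, whose 255 cells were 5.8% of the LEC sort and held 57.8% of its Pgf UMIs. Its level there was 2690 CPM (2595 to 2787), with UMIs in 212 of 255 cells and up to 214 in 1 cell. Other endothelial cells of the sort were at 134 CPM, a 20.1-fold difference (19.01 to 21.3). Pgf ranked 37th of the 8142 genes compared, of which 6.58% were at least 2-fold higher in the cluster. Next in order were cluster 15 at 297 CPM (277 to 318), cluster 17 at 227 CPM (199 to 258) and, in the BEC sort, cluster 1 at 219 CPM (207 to 233), where the last pair had overlapping intervals. LEC clusters 12, 13, 14, 5 and 11 followed at 146, 104, 84.7, 77.5 and 38.6 CPM, and most neighbours among them overlapped. In the 5 BEC clusters other than 1 and 8 Pgf was between 5.20 and 29.6 CPM. The upper value is that of cluster 6, where 1 cell held 66.1% of the 59 Pgf UMIs.

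Cluster 1 was the blood endothelial counterpart in level order. It held 83.7% of the BEC sort's Pgf UMIs in 17.2% of its cells. Its 219 CPM compared with 10.3 CPM in other BEC endothelial cells, 21.3-fold higher (18.3 to 24.8), and Pgf ranked 3rd of 7550 genes there, of which 2.26% were at least 2-fold higher. Pgf was uneven even within the cluster: 193 of 555 cells had a UMI, and the 10% of cells with most held 77.7% of its UMIs. The small cluster 8, with the same leading genes Tnfrsf9 and Apln, was at 134 CPM (100.3 to 174) over 93 cells. Lymphatic markers summed to 622 CPM in cluster 8, against 61.6 to 114 CPM in the other BEC clusters, and their part in its Pgf level was not tested.

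Vegfa followed Pgf in the LEC sort and was far sparser. In cluster 16 it was at 62.8 CPM (48.8 to 78.8), with UMIs in 71 of 255 cells, against 3.72 CPM in other LEC endothelial cells, 16.9-fold higher (11.6 to 24.04). It ranked 49th of the 8142 genes. At a coarser resolution of 0.5, where the cells fell into a larger cluster of 826, the log2 ratio was 3.29 for Vegfa and 3.46 for Pgf, in place of 4.08 and 4.33. Cluster 15 came next at 8.76 CPM (5.62 to 13.0), and every other LEC cluster was between 1.83 and 3.64 CPM with overlapping intervals. Cluster 16 held 38.1% of the LEC sort's Vegfa UMIs. In the BEC sort cluster 1 had 24 of the 39 endothelial Vegfa UMIs, in 8 cells, and cluster 8 had 0 in 93 cells. Against other BEC endothelial cells cluster 1 was 5.97-fold higher (2.02 to 25.5), while neighbours in the order of BEC clusters had overlapping intervals.

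Vegfc had the clearest order in the BEC sort. Cluster 3 was at 266 CPM (253 to 279), with UMIs in 613 of 921 cells, and held 57.0% of the sort's Vegfc UMIs. Against 66.5 CPM in other BEC endothelial cells this was 3.997-fold higher (3.71 to 4.31), and Vegfc ranked 6th of 7585 genes, of which 1.53% were at least 2-fold higher. Cluster 6 followed at 166 CPM (138 to 199) and cluster 8 at 106 CPM (77.0 to 143), whose intervals overlapped. Cluster 2 was at 85.2, cluster 7 at 63.3, cluster 1 at 48.7 and the venous-marked cluster 4 at 29.9 CPM (23.7 to 36.8). All 8 LEC groups were at 1.39 CPM or less, and 4 of them had 0 UMIs. The lowest BEC group lay above the highest LEC group with no overlap of their intervals. The height of the peak depended on where clusters were drawn. With another random seed, the cluster that best overlapped cluster 3 (696 cells) was 1.24 above the rest on the log2 scale. Whether another cluster of that run was higher is not given here.

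Vegfc and Pgf were highest in different BEC clusters. Cluster 3, highest in Vegfc, had Pgf at 5.20 CPM (3.51 to 7.24), which overlapped the intervals of cluster 2 at 5.47 CPM (3.85 to 7.53) and cluster 4 at 7.57 CPM (4.601 to 11.4). Pgf there was 13.7-fold below other BEC endothelial cells (9.77 to 20.3), and 2.44-fold (1.69 to 3.73) when cluster 1 was left out of them. Cluster 8 had high levels of both, with only clusters 3 and 6 above it in Vegfc and only cluster 1 above it in Pgf among the BEC groups. Cluster 1, highest of the BEC groups in Pgf, had 2.76-fold less Vegfc than the others (2.43 to 3.15). After thinning, Pgf was found in 3.36% of the 864 Vegfc-positive BEC endothelial cells and 7.81% of the Vegfc-negative ones. Within cluster 3 these shares were 2.30% and 1.36%, and within cluster 1 17.3% and 25.3%, the former from 14 cells with both. In the LEC sort Pgf was found in 63.4% of the 93 Vegfa-positive endothelial cells and 23.3% of the Vegfa-negative ones. Of the 59 cells with both, 40 were in cluster 16, where these shares were 93.0% and 79.7%. They were 54.5% and 38.9% in cluster 15, 16.7% and 16.9% in cluster 13, and 0% and 8.22% in cluster 11. Each other cluster had at most 5 Vegfa-positive cells. Of LEC endothelial cells 2.78% had UMIs of 2 ligands and 0.199% of 3, and of BEC endothelial cells 1.52% had 2 and 0 cells had 3.

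Vegfb showed no such peak. LEC groups lay between 7.46 CPM in cluster 17 and 31.9 CPM in the cycling cluster 5 (22.6 to 43.8), and BEC groups between 2.01 CPM in cluster 6 and 7.91 CPM in the cycling cluster 7 (4.93 to 12.5). Every neighbouring pair in this order had overlapping intervals, but those of LEC clusters 5 and 17 (3.36 to 15.3) did not overlap. Cluster 5, taken because it was highest, was 0.735 above other LEC endothelial cells on the log2 scale (0.208 to 1.23). In cluster 16 Vegfb was at 23.2 CPM against 19.9 CPM in other LEC endothelial cells, a ratio of 1.17 (0.740 to 1.72).

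**Figure D2:**
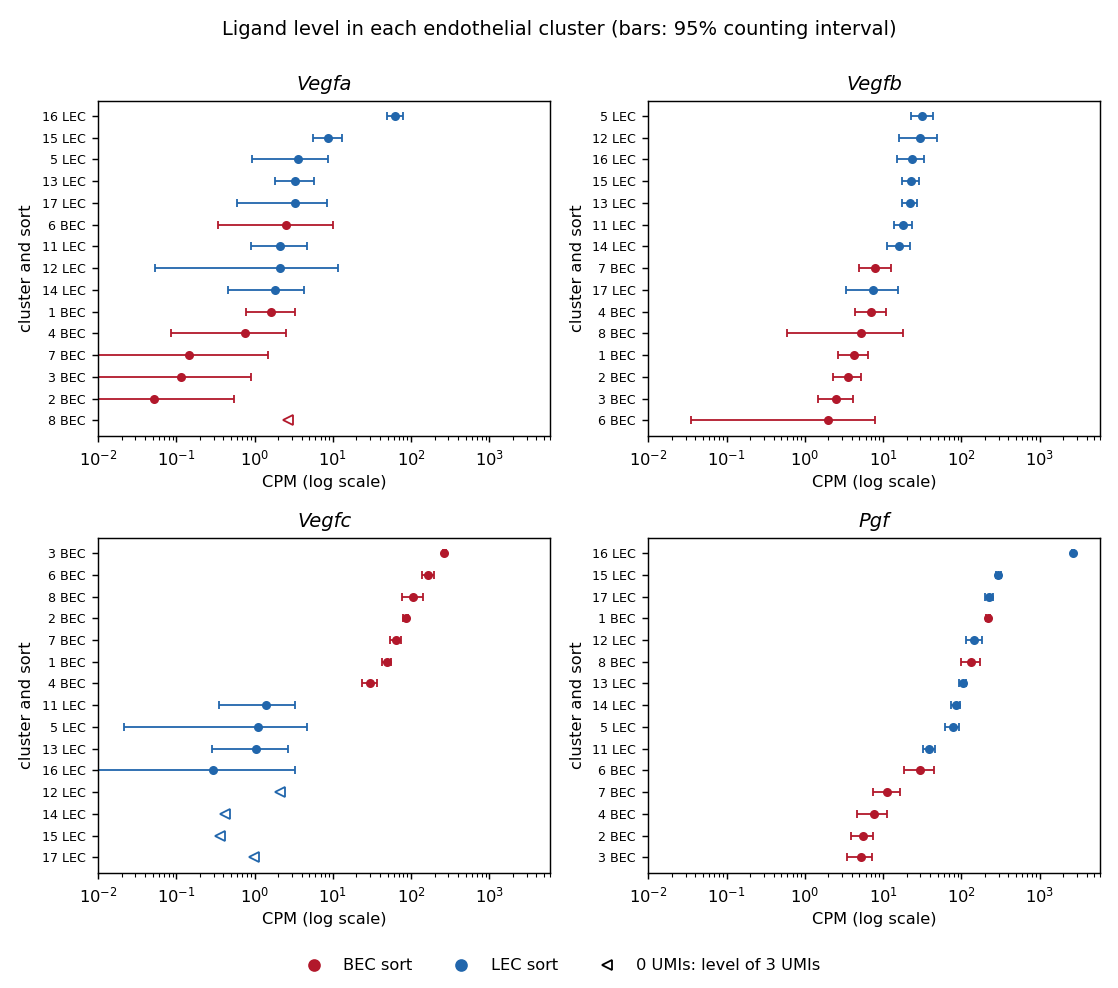
Level of each ligand in CPM (log axis) in the 15 endothelial groups, ordered by level within each panel; red points are clusters of the BEC sort, blue of the LEC sort, bars 95% counting intervals, and open triangles groups with 0 UMIs drawn at the level of 3 UMIs. Pgf and Vegfa peak in cluster 16 at 2690 and 62.8 CPM, Vegfc in cluster 3 at 266 CPM, and all BEC groups of Vegfc lie above all LEC groups.

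Markers of other cells moved with the Pgf peak. Macrophage markers (Mrc1, Cd68, Lyz2, Csf1r, Adgre1, C1qa and C1qb) summed to 456 CPM in cluster 16, with 5 of 7 at 10 CPM or more, 0 of 7 at zero and Lyz2 at 145 CPM. The sum was between 18.2 and 125 CPM in the other LEC groups and between 3.02 and 34.4 CPM in BEC groups. Lymphatic markers summed to 12261 CPM in the cluster, against 24319 to 65876 CPM in the LEC-like groups and 27914 CPM in cluster 17, and the 8 pan-endothelial markers to 2854 CPM against 3881 to 5802 CPM. The pan-leukocyte gene Ptprc was at 2.93 CPM and Laptm5, of the same marker list, at 7.92 CPM, each the highest of the LEC groups. The leukocyte markers Cd52, Coro1a and Srgn were higher in other LEC groups. The 132 cells of the cluster with no macrophage UMI had Pgf at 2787 CPM (2644 to 2933) and Vegfa at 62.0 CPM (42.0 to 86.6). The 123 cells with such a UMI had 2609 CPM (2483 to 2740) and 63.4 CPM (45.1 to 86.7). The intervals of the 2 sets overlapped for both ligands. Mrc1 of this list was also at 62.3 CPM in cluster 15 and 42.5 CPM in cluster 5. Cd68, Lyz2, Csf1r, Adgre1, C1qa and C1qb were each highest in cluster 16. Lyz2, C1qa and C1qb were at 145, 73.0 and 59.2 CPM there, against 11.2, 1.46 and 4.26 CPM in cluster 15. The cell type behind a UMI of the list was not tested. Vegfb was at 12.8 CPM (5.40 to 27.7) in the cells without and 32.0 CPM (19.9 to 50.2) in those with a macrophage UMI. The median depth of these groups was 10313 and 12725 UMIs. Melanocytic markers summed to 183 CPM in cluster 16 and to between 113 and 219 CPM in the other LEC groups, and to 23008 CPM in pigmented cells.

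Hypoxia and glycolysis genes moved with the same clusters. In cluster 16 all 15 genes of the hypoxia list and all 15 of the glycolysis list exceeded other LEC endothelial cells by 2-fold or more, with median log2 ratios of 2.73 and 2.04 against -0.19 for all 8142 genes. The mitophagy gene Bnip3 was 15.4-fold higher (13.9 to 17.1), the vasoactive peptide gene Adm 7.17-fold, the hypoxia-inducible mitochondrial gene Higd1a 6.62-fold and Ndrg1 3.77-fold. Of the glycolytic enzymes, Pkm was 5.09-fold, Gapdh 4.39-fold, Ldha 3.45-fold and Aldoa 3.38-fold higher. In cluster 1 of the BEC sort 6 of 12 measured hypoxia genes were at least 2-fold higher and 0 lower, where 4.04% of all genes were 2-fold lower, with Adm 8.84-fold higher (8.23 to 9.50) and Bnip3 3.75-fold, but Ndrg1 and Higd1a at 1.09-fold and 1.43-fold. The glycolysis list had 2 of 14 genes higher there. In cluster 15 of the LEC sort, compared without cluster 16, 11 of 14 hypoxia genes were at least 2-fold higher, as were 2.19% of 8002 genes, with Pgf 3.005-fold (2.75 to 3.28) and Vegfa 3.32-fold higher (1.87 to 5.71). In the Vegfc-high cluster 3, 0 of 12 hypoxia genes were higher and 4 lower, Adm by 2.37-fold, Bnip3 by 2.34-fold, Ankrd37 and Egln3, where 4.1% of 7585 genes were lower. With cluster 1 left out of the other cells, 0 of 11 were higher and 0 lower (median -0.02). Between the sorts 10 of 15 hypoxia genes passed 2-fold towards LEC and 0 towards BEC (median 1.12, against 0.11 for all genes), while the glycolysis list had 3 of 14 higher (median 0.18). Between lymphatic-lineage and blood-lineage cells the glycolysis median turned to -0.12. Ldha was 1.08-fold and Aldoa 1.72-fold higher in LEC, and Pkm 1.60-fold and Gapdh 1.39-fold higher in BEC.

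To follow the ligands along this axis without using clusters, endothelial cells of each sort were ordered by the summed share of the 15 hypoxia genes, none of which is a ligand, and divided into 5 equal bins. Pgf in the LEC sort was at 94.97, 81.3, 94.6, 122 and 1166 CPM from the lowest to the highest bin, so the change lay almost wholly in the last. In the BEC sort it was at 11.3, 11.2, 17.9, 14.1 and 226 CPM, which put the highest bin 20.1-fold above the lowest (15.1 to 27.4). In LEC the same ratio was 12.3 (10.9 to 13.9). The highest bin of LEC held 223 of the 255 cells of cluster 16, and the highest bin of BEC 289 of the 555 cells of cluster 1. Without cluster 16 the highest LEC bin had Pgf at 304 CPM, 3.18-fold above the lowest (2.77 to 3.67). Without cluster 1 the highest BEC bin had 24.8 CPM, 3.30-fold above the lowest (2.11 to 5.35).

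Vegfa in the LEC sort was at 0.789, 3.43, 2.40, 2.51 and 29.8 CPM along the bins, 37.7-fold higher in the last than in the first, where only 7 UMIs were found (interval 11.9 to 370). Without cluster 16 the last bin was at 10.0 CPM and the ratio 11.9 (3.47 to 119). In the BEC sort 26 of 39 Vegfa UMIs were in the highest bin, 5.95-fold above the lowest in CPM (1.14 to 361). With bins by glycolysis genes this ratio was 1.64 (0.365 to 8.90), and without cluster 1 the hypoxia bins held 3, 1, 5, 3 and 3 UMIs. Vegfb was level, between 17.4 and 22.4 CPM in LEC and between 3.72 and 5.63 CPM in BEC. Vegfc in BEC was lowest in the highest bin, at 137, 121, 125, 116 and 85.6 CPM, 1.60-fold below the lowest bin (1.41 to 1.82). Without cluster 1 this was 1.17-fold (1.03 to 1.33).

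The relation was also present inside the 2 Pgf-high clusters. In cluster 16, bins of 51 cells had Pgf at 836, 1961, 2320, 3580 and 5288 CPM, 6.32-fold higher in the last than in the first (5.40 to 7.41). Vegfa in the same cells was at 8.96, 27.0, 54.7, 100 and 141 CPM, from 6 to 84 UMIs, 15.7-fold (3.97 to 136). In cluster 1, bins of 111 cells had Pgf at 54.0, 75.7, 103, 190 and 697 CPM, 12.9-fold (9.74 to 17.3), and 22 of the cluster's 24 Vegfa UMIs were in the last. The median depth of these bins ranged from 10064 to 14605 UMIs in cluster 16 and from 22049 to 26564 UMIs in cluster 1, and the last bin was the shallowest in both.

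**Figure D3:**
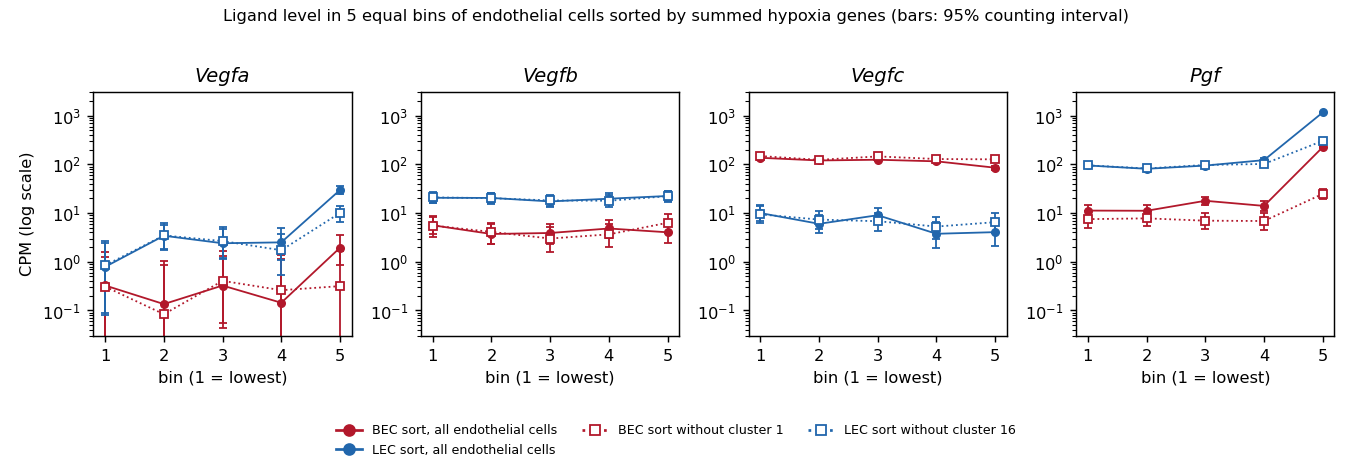
Level of each ligand in CPM (log axis) in bins of endothelial cells ordered by summed hypoxia genes, from 1 (lowest) to 5; filled circles and solid lines are all endothelial cells of the BEC (red) or LEC (blue) sort, open squares and dotted lines the same without cluster 1 or cluster 16, and bars 95% counting intervals. Pgf reaches 1166 CPM in the last LEC bin and 226 CPM in the last BEC bin, Vegfb stays level, and Vegfc in BEC is lowest in the last bin at 85.6 CPM.

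Tumor cells in the LEC sort gave a point of comparison for endothelial ligand levels. Vegfa was at 19.1 CPM in pigmented cells (14.0 to 25.1) and 7.75 CPM in LEC endothelial cells, 2.46-fold higher in the tumor cells (1.72 to 3.42), and Vegfb was 2.25-fold higher (1.81 to 2.79). Both passed 2-fold, as did 12.5% of 8478 genes. Pgf was at 50.4 CPM in pigmented cells against 308 CPM, 6.12-fold lower (5.15 to 7.36). Against LEC endothelial cells without cluster 16, Vegfa was 5.13-fold higher (3.39 to 7.54) and Pgf 2.65-fold lower (2.23 to 3.20), and Pgf in cluster 11, at 38.6 CPM, was below the pigmented cells. Vegfc was at 5.42 against 6.57 CPM, with a ratio of endothelial over pigmented cells of 1.21 (0.691 to 2.29). Of the 328 Vegfc UMIs in these endothelial cells, 291 were in the 104 cells of blood lineage. Lymphatic-lineage cells alone had 0.772 CPM (0.388 to 1.31), and this interval lay below that of the pigmented cells (2.96 to 9.09). Melanocytic markers summed to 168 CPM in LEC endothelial cells and 23008 CPM in pigmented cells, and the part of tumor RNA in the endothelial levels was not tested. The Vegfa level of cluster 16, 62.8 CPM (48.8 to 78.8), lay above that of the pigmented cells.

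Pigmented cells can carry endothelial RNA, so they were divided by 8 pan-endothelial markers, which summed to 388 CPM in all 279 cells. In the 191 cells with at most 5 such UMIs, Pgf was at 30.004 CPM (22.2 to 39.2), Vegfa at 17.9, Vegfb at 50.9 and Vegfc at 6.23 CPM. In the other 88 cells, Pgf was at 90.4 CPM (71.6 to 113) and Vegfa at 21.4 CPM, with 1 cell holding 48.9% of the Pgf UMIs. The thinned shares of cells with Pgf were 9.42% (5.68 to 14.5%) and 11.4% (5.59 to 19.9%), whose intervals overlapped, and the part of endothelial RNA in the Pgf level was not tested. The 22 pigmented cells of the BEC sort had Pgf at 19.9 CPM and Vegfc at 41.1 CPM, where 1 cell held 54.3% of the Vegfc UMIs. At the threshold, 14 cells with 15 to 19 pigment UMIs had 16 Pgf and 0 Vegfa UMIs, and 7 cells with 20 to 24 had 4 and 7. All 5 VEGF receptors were at least 2-fold lower in pigmented than in LEC endothelial cells, where 18.3% of all genes were, and 13 of 14 glycolysis genes were higher, against the 12.5% above. These endothelial cells include the 104 of blood lineage, and the receptors were not compared with lymphatic-lineage cells alone. Levels of Flt1 and Nrp1 in lymphatic-lineage cells are given below.

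The receptors divided the sorts as well. Flt1 had 1157 CPM in the BEC sort and 39.97 CPM in the LEC sort, a 28.9-fold difference (26.96 to 31.1), and the coreceptor Nrp1 29.1-fold (26.2 to 32.4). Kdr was 2.31-fold higher in BEC (2.22 to 2.41). Flt4 was 6.02-fold (5.66 to 6.41) and its coreceptor Nrp2 2.57-fold (2.44 to 2.71) higher in LEC. Flt1 and Nrp1 belong to the blood endothelial marker list and Flt4 to the lymphatic list by which lineage was assigned. Their levels by lineage are thus partly set by that rule. Among lymphatic-lineage cells Flt1 was at 3.92 CPM and Nrp1 at 1.88 CPM. The 2 Pgf-high clusters differed in its receptor as their sorts did. Cluster 1, highest of the BEC groups in Pgf, had Flt1 at 917 CPM, within the 578 to 1838 CPM of BEC groups. In cluster 16 Flt1 was at 3.23 CPM, within the 0.699 to 5.60 CPM of LEC groups. Kdr was also low there, at 73.3 CPM against 206 CPM in other LEC endothelial cells, 2.81-fold lower (2.27 to 3.55), and Flt4 was 1.60-fold lower. In cluster 3 of the BEC sort, highest in Vegfc, Flt1, Kdr, Nrp1 and Flt4 were 1.92-fold, 1.96-fold, 1.87-fold and 1.76-fold higher than in other BEC endothelial cells. Flt4 there was at 71.5 CPM, the highest of the BEC groups and below the 214 to 455 CPM of LEC groups.

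**Figure D4:**
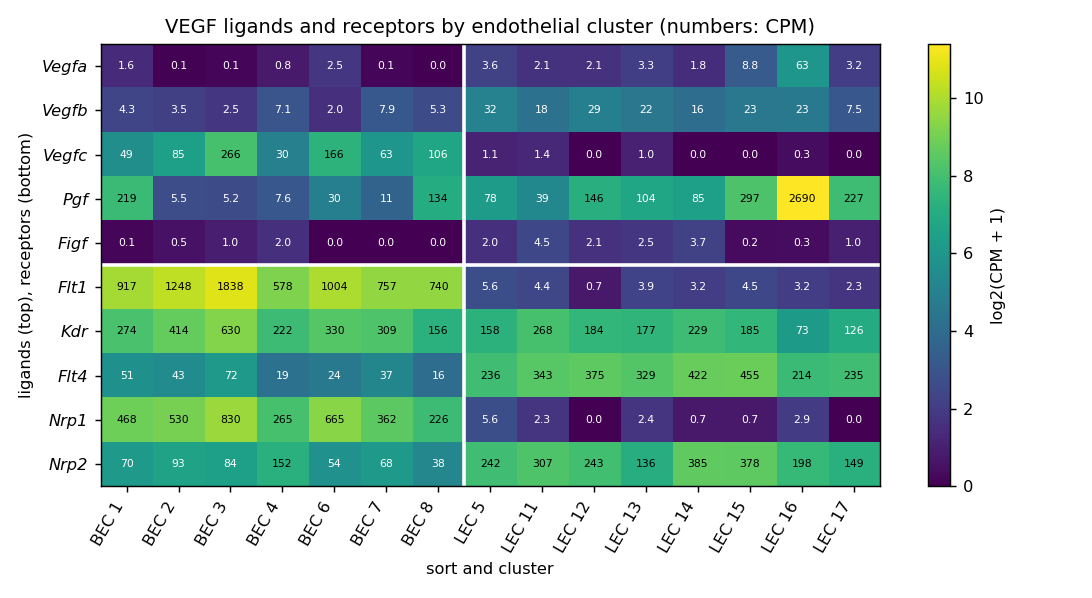
Levels of the ligands Vegfa, Vegfb, Vegfc, Pgf and Figf (upper rows) and of the receptors Flt1, Kdr, Flt4, Nrp1 and Nrp2 (lower rows) in the 15 endothelial groups; numbers are CPM and color is log2(CPM + 1). Vegfc, Flt1 and Nrp1 are high in BEC groups (Flt1 from 578 to 1838 CPM) and near 0 in LEC groups, while Flt4 is higher in every LEC group.

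Among other genes of ligand supply, Figf, Ccbe1, Adamts3, Plg and Pcsk5 were sparse over the sorts, while Furin, Pcsk7 and Ctsd were not. Figf (Vegfd), the other Flt4 ligand, had 44 UMIs in BEC (0.617 CPM) and 122 in LEC (2.06 CPM), 3.34-fold higher in LEC (1.81 to 6.29). Of the genes that process Vegfc, Ccbe1 had 3 and 6 UMIs and its partner protease Adamts3 3 and 14 in BEC and LEC. Plg had 0 and 2 UMIs and Pcsk5 85 and 12. The convertase genes Furin (33.9 and 27.2 CPM) and Pcsk7 (30.04 and 11.9 CPM) were higher in BEC by 1.24-fold and 2.51-fold. The cathepsin gene Ctsd, at 244 to 710 CPM in every endothelial group, was 1.5004-fold and the plasminogen activator Plau 2.42-fold (1.81 to 3.25) higher in LEC. Of the 8 processing genes 3 passed 10 CPM in either sort, and 1 of them, Pcsk7, was at least 2-fold apart.

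The genes whose levels across the 15 endothelial groups were most like each ligand were found by the Pearson correlation of log2(CPM + 1). The groups share 2 sorts and were drawn on many of the same genes, so the values describe and carry no test. For Vegfc they were Flt1 (0.98), Nrp1 (0.98), Magix (0.98), Gm12002 (0.98) and Abcc4 (0.98), all highest in cluster 3. For Vegfa they were Metrnl (0.96), Hmox1 (0.94), Cd68 (0.94), Ago2 (0.94) and Egln1 (0.93), and for Pgf Hba-a1 (0.92), Spp1 (0.91), Egln3 (0.90), Spg21 (0.90) and Mif (0.89), all highest in cluster 16. Egln1 and Egln3 encode the prolyl hydroxylases that mark HIF for degradation. Hba-a1, a haemoglobin gene, reached only 12.3 CPM. For Vegfb they were Ngfrap1 (0.95), Fundc2 (0.95), Coprs (0.94), Rhoh (0.93) and Lefty1 (0.93), highest in LEC clusters 15, 5, 12, 12 and 15. At resolution 2, with 25 groups, the same values were lower for some genes, such as Ago2 (0.54) and Hba-a1 (0.60), and close for others, such as Flt1 (0.96). Between the ligands, Pgf and Vegfa had a correlation of 0.81 and Vegfc and Vegfb of -0.88.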

How the data were processed

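The members and gene lists were chosen with earlier results of these data known. The authors deposited 1 matrix of UMI counts per gene and cell, not normalized, made with Cell Ranger 2.1.1 on mm10 per the submitters' processing notes. Total counts were 71304111 in the BEC sort and 59273049 in the LEC sort, and every cell was kept. No doublet caller was run. Cells were clustered with scanpy 1.11.5 on 2000 variable genes, 30 principal components, 15 neighbours and resolution 1, with the 4 ligands left out, and named from marker lists (at least 3 markers). Counts were summed per group with numpy 2.4.6 and pandas 2.3.3 under Python 3.11.15. Levels carry exact Poisson intervals, ratios exact conditional binomial intervals and shares exact Clopper-Pearson intervals, from scipy 1.17.1. Before the intervals of levels and ratios, counts were divided by a count factor and rounded, and the bounds were scaled back. The factor is the median, over genes of mean 0.01 to 0.05 UMIs per cell, of the sum of squared counts over the sum of counts (2.81 in BEC, 3 in LEC), and it was added after the counts were seen. A gene was compared at 10 CPM or more in either group, and counted as apart at 2-fold. Size factors, per-cell means, other cell sets, thinning depths, clusterings and bin lists were tried. Named genes were the ligands, all receptors, related ligands and processing genes, the 4 most abundant genes of each response list, the 5 genes most like each ligand and the 5 leading genes of each cluster, of which 1 is not reported here; Kit, Ankrd37, Egln3, Cd68 and single markers were named after their values were seen. On simulated data (28692 genes, 200 changed 4-fold) the LEC over BEC comparison found 100% of changed genes and 0% of 7610 unchanged ones, and 96.1% of ratio intervals held the simulated ratio. The simulated sums were drawn with the same count factors and no variation between cells, so they check the calculation only. The graph and the components came from python-igraph 0.11.9 and scikit-learn 1.9.0, and figures from matplotlib 3.10.9.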

Additional observations from a re-analysis of the deposited data

How the results depend on the processing

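No paired analysis was possible because the columns carry no library number, and for the same reason no library could be left out. The log2 ratio of LEC over BEC kept its direction for all 4 ligands in every alternative run. With clusters of the sort's own type alone, which leave out cluster 16, it was 2.77 for Vegfa, -7.08 for Vegfc and 1.18 for Pgf. For Vegfc it was -4.66 as a mean over cells and -7.25 between lineages. For Pgf it was 2.13 with size factors, which shift all genes by -0.18, 2.47 as a mean over cells, 2.50 without non-endothelial clusters, 2.45 without the deepest 1% of cells, 2.52 between lineages and 1.15 without cluster 16. The last, the lineage ratios, the cluster 16 and cluster 1 exclusions and the macrophage split were chosen after seeing the data. In pigmented cells with at most 5 pan-endothelial UMIs the Pgf ratio was -3.36. Against endothelial cells without cluster 16, also chosen after seeing the data, it was -1.41 for Pgf and 2.36 for Vegfa.

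Shares of cells follow depth by construction. At 2000 UMIs they were 1.57% for Vegfa in LEC, 0.805% and 3.47% for Vegfb in BEC and LEC, 15.9% and 0.703% for Vegfc, and 4.18% and 16% for Pgf. Without thinning they were 0.743% and 4.95% for Vegfa, 4.71% and 10.9% for Vegfb, 42.3% and 1.68% for Vegfc, and 13.1% and 28.1% for Pgf. For the cluster that best overlapped the highest cluster of the main run, the log2 ratio was 3.29 for Vegfa at resolution 0.5. For Vegfc and Pgf it was 1.55 and 4.49 at resolution 2, 1.54 and 3.46 at resolution 0.5, 1.24 and 3.86 with another seed, and 2.24 and 4.43 with the ligands kept.

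Between the last and first hypoxia bins, the log2 ratio within own-type clusters was 3.40 for Vegfa and 1.40 for Pgf in LEC, and 3.57 and 1.67 without cluster 16. In BEC without cluster 1 it was 1.72 for Pgf and -0.22 for Vegfc, and Vegfa, at 3 and 3 UMIs, gave no value. Binned by glycolysis genes it was 3.26 for Pgf and -0.43 for Vegfc in BEC. Vegfb in BEC turned from -0.48 to 0.19 with glycolysis genes and to 0.19 without cluster 1. Vegfc in LEC turned from -1.30 to 4.51 with glycolysis genes, where the first and last bins held 4 and 111 UMIs. It turned to 0.94 in own-type clusters, on 3 and 6 UMIs. Of the 328 Vegfc UMIs of LEC endothelial cells, 291 were in the 104 cells of blood lineage. The cause of these turns was not tested. Genes at least 2-fold higher numbered 351 in LEC and 352 in BEC at a minimum of 50 CPM, and 3716 and 1868 with none, as fewer or more genes were compared. Vegfa in BEC, with 57 UMIs, and Vegfc in lymphatic cells, with 37, are limited by depth.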

Other observations

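The related PDGF ligands, which recruit mural cells and fibroblasts, also divided the sorts. Pdgfb was at 85.2 CPM in the BEC sort and 14.2 CPM in the LEC sort, 5.98-fold higher in blood endothelium (5.29 to 6.81), and Pdgfd was 5.91-fold higher there (5.10 to 6.91). Pdgfa was 4.28-fold higher in the LEC sort (3.84 to 4.79), at 69.8 against 16.3 CPM. Pdgfc had 32 UMIs in the BEC sort and 1 in the LEC sort. Of the 9 measured genes of the list of VEGF responses, 6 passed 2-fold towards BEC and 1 towards LEC. Their median log2 ratio of LEC over BEC was -2.63, against 0.11 over all genes. The tip cell proteoglycan gene Esm1 was 31.3-fold and the Notch ligand gene Dll4 6.90-fold higher in BEC, and Angpt2, which destabilises vessels, 2.25-fold, while Plaur was 1.30-fold higher in LEC.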
